A study of Homo sapiens with 8 samples.

Results

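Histone-modifying enzymes attach acetyl and methyl groups to histone tails, or take them off again, and so set which parts of the genome can be read. Acetyltransferases write the acetyl marks that bromodomains bind, and deacetylases (the HDAC and SIRT families) erase them. Methyltransferases write methyl marks on lysines, some linked to active genes (the KMT2 and SETD1 enzymes) and some to silent ones (EZH1 and EZH2 of Polycomb, SUV39H1 and SUV39H2), and demethylases of the KDM families remove them.

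A total of 57 genes of these kinds was measured: 13 deacetylases, 9 acetyltransferases, 9 Polycomb genes, 15 methyltransferases and 11 demethylases. The Polycomb genes include subunits that are not themselves enzymes, such as the reader CBX7, and all 57 are called enzymes below for short. They were taken by gene name from 60282 genes listed, by a rule that holds no measured value. The members were, however, chosen with earlier results of these data known, and their shares beside those of all genes carry that limit. All 57 were among the 14073 genes that passed the filter of more than 1 CPM (reads relative to the size of the library) in at least 4 libraries. Cells of SK-UT-1, an established line derived from a uterine leiomyosarcoma, received vehicle or 5 µM TP-472 for 48 h. TP-472 is a small molecule that inhibits the bromodomain protein BRD9 and, per the sample descriptions, BRD7. Total RNA of 4 replicates per group was sequenced. Vehicle libraries held 32574716 to 36634184 counts in total and TP-472 libraries 36246466 to 38545695. The study's methods state that all its experiments used biological replicates, but nothing in the sample descriptions says that these came from separate cultures. The p-values therefore measure the spread between these samples, which may be technical, and all values are from 1 cell line.

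Mesenchymal markers and part of the smooth muscle markers were present. VIM, a mesenchymal filament, stood at a mean of 2538 CPM with vehicle and 1908 CPM with TP-472, CALD1 at 199.6 and 192 CPM, and ACTA2, the smooth muscle actin, at 160.3 and 109 CPM. The smooth muscle myosin MYH11 and the smooth muscle coactivator MYOCD were near 0, with MYH11 higher in every TP-472 library (means of 0.0070 and 0.236 CPM). CNN1 had 1.26 and 1.38 CPM. DES and LMOD1, at 3.25 and 2.53 CPM with vehicle, and TAGLN, at 32.3 CPM, fell with TP-472, at log2 fold changes of −2.36, −1.84 and −0.67. The immune markers PTPRC and CD3E were also near 0. So were the endothelial markers PECAM1, CDH5 and VWF, though all of them were higher in every TP-472 library. Their means with vehicle and TP-472 were 0.0142 and 0.195 CPM for PECAM1, 0 and 0.0747 CPM for CDH5, and 0.0926 and 0.203 CPM for VWF. CD68, listed as an immune marker, had 7.53 CPM with vehicle and 10.4 CPM with TP-472, higher in every TP-472 library. Of the epithelial markers, EPCAM and CDH1 were under 1 CPM, with EPCAM lower in every TP-472 library (means of 0.731 and 0.245 CPM). KRT8 had 1.999 and 2.86 CPM and was higher in every TP-472 library. KRT18 rose from 7.39 to 15.6 CPM and KRT19 fell from 8.88 to 4.93 CPM. The collagen genes COL1A2 and COL1A1 fell from 589 to 98.8 CPM and from 9.19 to 1.80 CPM. Without vehicle replicate 3 the vehicle mean of COL1A1 was 4.95 CPM. S100A4 stood at 1.89 and 1.47 CPM and was not called. THY1 went the other way, at 41.1 CPM with vehicle and 48.9 CPM with TP-472, and was not called either. Its log2 fold change was 0.25, and 0.46 without vehicle replicate 3. The part of these markers in the results was not tested. Since the RNA was taken from bulk cultures, fewer cells with a transcript and less of it per cell cannot be told apart.

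Vehicle replicate 3 stood apart from the other vehicle libraries. Its median absolute log2 distance to them was 0.533 over all genes tested and 0.616 over the 57 enzymes, against 0.208 to 0.269 over the enzymes for the other vehicle libraries and 0.0599 to 0.163 for the TP-472 libraries. The distance followed base composition. Of the 24 enzyme genes with a GC content of at least 55% in their protein-coding transcripts, all 24 were higher in vehicle replicate 3 than the mean of the other vehicle libraries, and of the 14 genes under 45% none was. The plot of library deviations shows this trend, which had a Spearman rho of 0.867 over the 57 genes, and a second one for TP-472 replicate 4, whose deviation rose with transcript length (rho 0.695). In the other libraries the rho with length ran from −0.593 (TP-472 replicate 2) to 0.541 (vehicle replicate 1). These correlations are across genes that share a library and are not independent, and are given as a description. The main counts and the fold changes of the enzymes described singly are therefore given with all libraries and again without vehicle replicate 3. The part of this library in the results beyond those values was not tested.

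**Figure D1:**
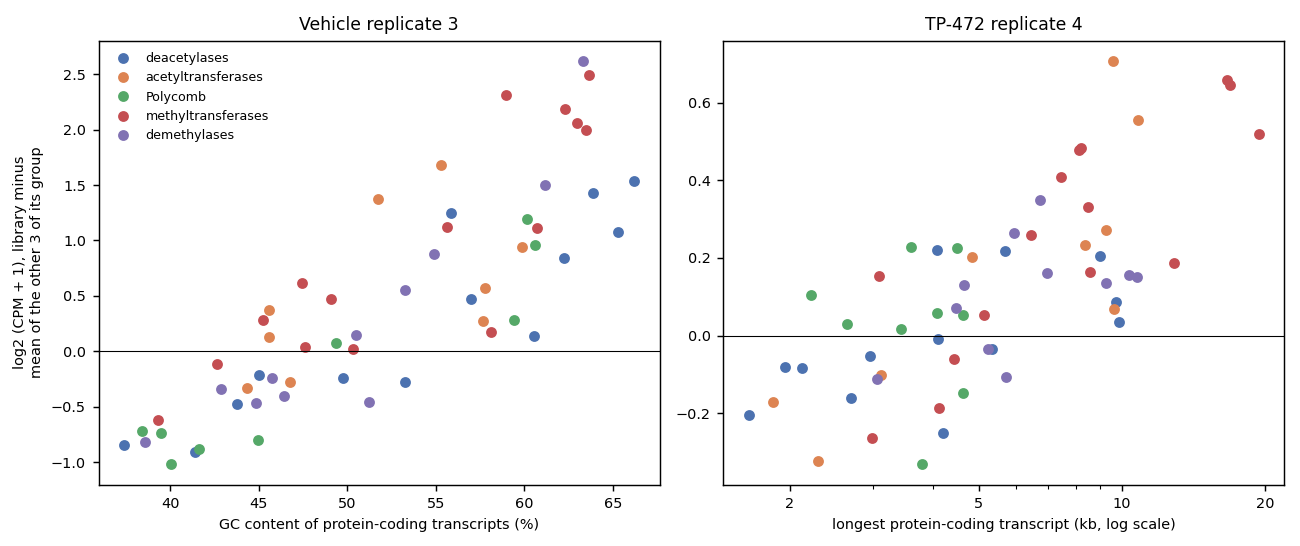
Deviation of each of the 57 enzymes, as log2(CPM + 1) in the library minus the mean of the other 3 libraries of its group, for vehicle replicate 3 against GC content (left) and for TP-472 replicate 4 against the length of the longest transcript on a log axis (right). Points are genes coloured by class, and in vehicle replicate 3 all 24 genes with at least 55% GC lie above 0 while all 14 genes under 45% lie below it.

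With all 8 libraries, 12 of the 57 enzymes were differentially expressed, by edgeR's quasi-likelihood test at an adjusted p under 0.05 over all genes tested and a fold change over 1.5. HDAC2 alone rose (1.75% of the enzymes, against 12.0% of all genes tested that rose). HDAC5, HDAC6, HDAC7, HDAC9, KAT6B, EZH1, CBX7, KMT2C, NSD2, EHMT2 and KDM5B fell (19.3%, against 14.9% of all genes tested). The other 45 were not called in either direction. Without vehicle replicate 3 no enzyme rose, where 12.0% of all genes did, and 8 fell, where 13.1% of all genes did. These 8, HDAC5, HDAC6, HDAC9, KAT6B, EZH1, CBX7, KMT2C and KDM5B, were all among the 12. Dropping that library ended the calls of HDAC2, HDAC7, NSD2 and EHMT2.

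Most enzymes had lower fitted values with TP-472, whether or not they passed the test. The log2 fold change of TP-472 over vehicle was negative for 45 of the 57, with a median of −0.32 over the enzymes and −0.03 over all genes tested. Without vehicle replicate 3 the median was −0.26 over the enzymes and −1.15e-05 over all genes. The 4 libraries of each group did not overlap for 21 of the 57: HDAC2, EED, BMI1 and SUV39H2 were higher in every TP-472 library than in any vehicle library, and 17 were lower (36.8% in all, against 45.4% of all genes tested). By GC content, the 24 genes of at least 55% had a median of −0.86, and of −0.29 without vehicle replicate 3. It was −0.39 and −0.29 for the 19 genes of 45% to 55%, and 0.11 and −0.05 for the 14 genes below. Log2 fold changes were also lower for longer transcripts (Spearman rho −0.425 over the 57 genes). This rho was −0.485 without vehicle replicate 3 and −0.609 with each library's GC trend removed. It is given as a description, and the part of length in the results was not tested. The plot of fold changes sets the fitted values with and without vehicle replicate 3 side by side.

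**Figure D2:**
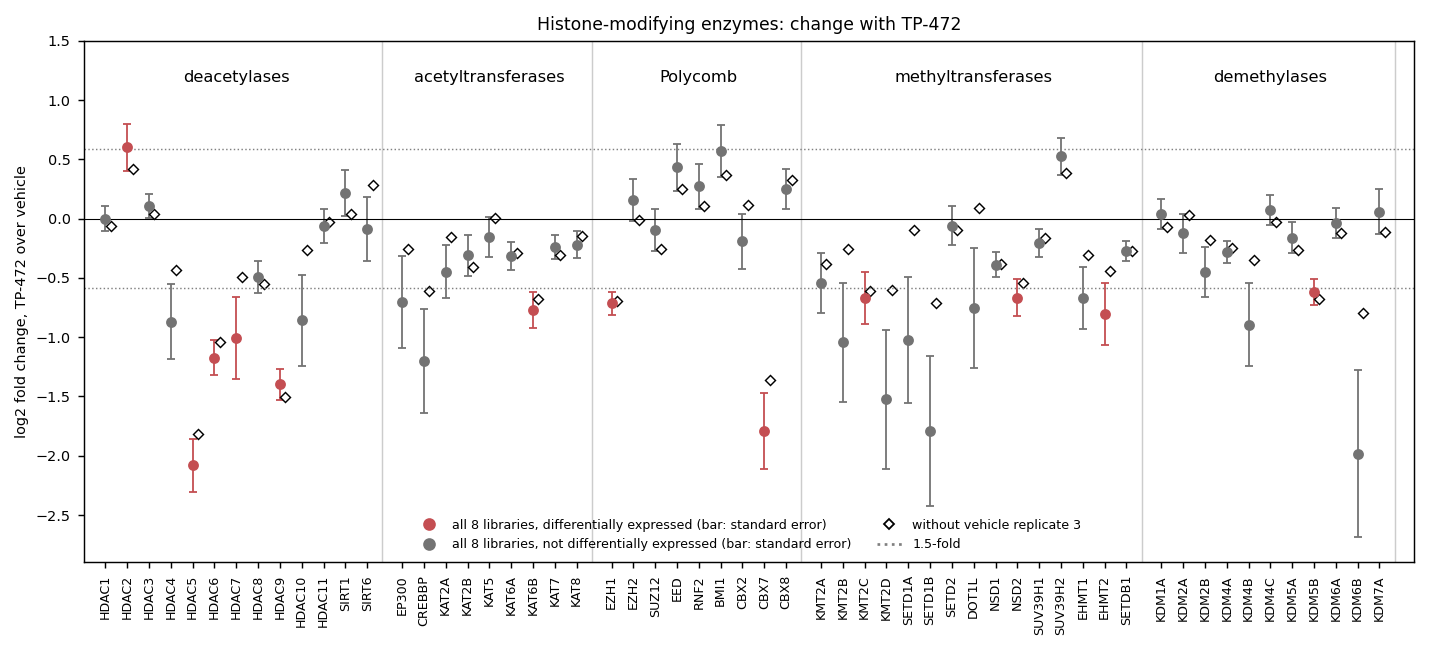
Log2 fold change of TP-472 over vehicle for the 57 enzymes by class, with filled points and standard errors from all 8 libraries (red where differentially expressed) and open diamonds for the fit without vehicle replicate 3; dotted lines mark a 1.5-fold change. The red points are HDAC2 above 0 and 11 genes below it, of which HDAC5 is lowest, and the diamonds of many uncalled genes such as SETD1A, KDM6B and KMT2D lie much nearer 0 than their filled points.

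Among the 13 deacetylases, HDAC2 rose and HDAC5, HDAC6, HDAC7 and HDAC9 fell (7.69% and 30.8%, against 12.0% and 14.9% of all genes tested). Without vehicle replicate 3 none rose and 3 fell, where 12.0% and 13.1% of all genes did. The class had a median log2 fold change of −0.495, and −0.27 without vehicle replicate 3. HDAC1 and HDAC2 are the nuclear class I enzymes that share the Sin3, NuRD and CoREST repressor complexes. HDAC1, whose mean CPM over all 8 libraries was the highest of the class (though HDAC9 was higher with vehicle and HDAC2 with TP-472), stood at 119.6, 133, 111 and 142 CPM in vehicle replicates 1 to 4 and at 126, 128, 130.2 and 121 CPM in TP-472 replicates 1 to 4. Its groups overlapped, with an edgeR adjusted p of 0.99, and 0.442 without vehicle replicate 3. HDAC2 (ENSG00000196591.12, chromosome 6, 113933028 to 114011308 of GRCh38) had 96.2, 106, 54.1 and 105 CPM with vehicle and 132, 137, 140.0 and 139.5 CPM with TP-472. All 4 TP-472 libraries were above all vehicle libraries, of which replicate 3 was the lowest. The fold change was 1.52 (log2 0.60 ± 0.197 SE, edgeR adjusted p = 0.0402), just past the limit of 1.5. Without vehicle replicate 3 it was 0.42 on the log2 scale (adjusted p = 2.97e-04) and so under the fold limit. HDAC2 also lost its call without vehicle replicate 1 or without any 1 of the TP-472 libraries, at adjusted p between 0.0743 and 0.0927.

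HDAC4, HDAC5, HDAC7 and HDAC9 are the class IIa deacetylases, which shuttle between cytoplasm and nucleus and bind MEF2 factors. HDAC5 (ENSG00000108840.15, chromosome 17, 44076746 to 44123702) had the largest decrease of the enzymes called, with 21.9, 23.3, 40.7 and 21.8 CPM with vehicle and 6.37, 7.08, 5.77 and 6.21 CPM with TP-472. Every TP-472 library was under every vehicle library by a wide gap, and vehicle replicate 3 was the highest. The fold change was 0.236 (log2 −2.08 ± 0.223, edgeR adjusted p = 3.24e-04). Leaving out vehicle replicate 3 gave −1.82 (adjusted p = 7.44e-07). HDAC9 (ENSG00000048052.21, chromosome 7, 18086949 to 19002416) had 186, 179, 131 and 179.9 CPM with vehicle and 63.3, 59.0, 67.2 and 67.1 CPM with TP-472. Here vehicle replicate 3 was the lowest vehicle library and still far above all TP-472 libraries. HDAC9 fell to 0.380 of its vehicle level (log2 −1.397 ± 0.131, adjusted p = 1.88e-04 in edgeR), and to a log2 fold change of −1.51 without that library (adjusted p = 4.03e-07).

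HDAC7 (ENSG00000061273.18, chromosome 12, 47782722 to 47833132) had 36.5, 30.3, 89.5 and 31.0 CPM with vehicle and 26.0, 24.6, 19.5 and 23.0 CPM with TP-472. The groups did not overlap, but vehicle replicate 3 was above every other library by a wide margin. The log2 fold change of −1.01 ± 0.343 (edgeR adjusted p = 0.0467) shrank to −0.49 without that library (adjusted p = 0.00384), under the fold limit. The call was also lost without vehicle replicate 1 or any 1 of the TP-472 libraries, at adjusted p from 0.0628 to 0.124. HDAC4 showed the same layout at 21.5, 15.2, 42.1 and 15.3 CPM with vehicle and 12.6, 13.3, 11.2 and 14.4 CPM with TP-472. Its log2 fold change of −0.87 ± 0.316 did not pass the test (edgeR adjusted p = 0.0577), and was −0.44 without vehicle replicate 3.

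HDAC6, a cytoplasmic class IIb deacetylase whose best known substrate is tubulin, also fell. HDAC6 (ENSG00000094631.21, chromosome X, 48801377 to 48824982) had 58.1, 60.7, 81.6 and 57.1 CPM with vehicle and 31.9, 30.1, 27.3 and 24.8 CPM with TP-472. The groups were well apart. The fold change was 0.443 (log2 −1.17 ± 0.147, edgeR adjusted p = 7.07e-04), and −1.04 on the log2 scale without vehicle replicate 3 (adjusted p = 1.23e-05). The remaining deacetylases HDAC3, HDAC8, HDAC10, HDAC11, SIRT1 and SIRT6 were not called, with log2 fold changes between −0.86 (HDAC10) and 0.22 (SIRT1), and of −0.27 and 0.04 for these 2 genes without vehicle replicate 3. HDAC8, a class I enzyme, had an edgeR adjusted p of 0.0209 but a log2 change of −0.495, under the fold limit, and of −0.55 without that library. SIRT6, a deacetylase of telomeric chromatin, had a log2 fold change of −0.09 with all libraries and 0.28 without vehicle replicate 3.

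**Figure D3:**
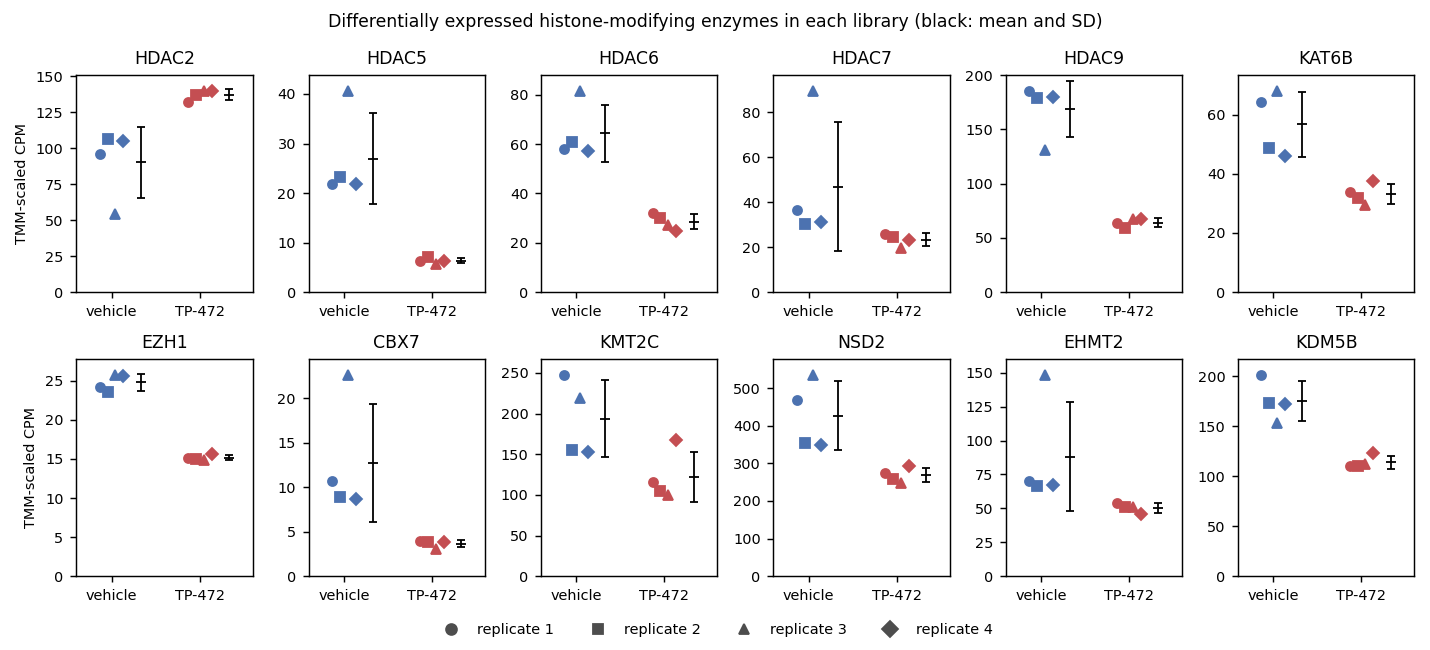
TMM-scaled CPM of the 12 differentially expressed enzymes in each library, with vehicle in blue, TP-472 in red, 1 symbol for each replicate number, and the mean and SD of each group in black. The triangles of vehicle replicate 3 lie far above the other vehicle points for HDAC5, HDAC7, CBX7 and EHMT2 and below them for HDAC2 and HDAC9, and KMT2C is the only gene whose groups overlap.

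Of the 9 acetyltransferases, KAT6B fell and none rose (11.1% fell, against 14.9% of all genes tested). All 9 had a negative log2 fold change, with a median of −0.315, and −0.29 without vehicle replicate 3. KAT6B (ENSG00000156650.14, chromosome 10, 74824927 to 75032624), a MYST-family enzyme that acetylates histone H3, had 64.1, 48.6, 68.1 and 46.0 CPM with vehicle and 33.98, 32.0, 29.6 and 37.5 CPM with TP-472. Each TP-472 library was below each vehicle library. The log2 fold change was −0.77 ± 0.154 (edgeR adjusted p = 0.0058) and −0.675 without vehicle replicate 3 (adjusted p = 0.00129). EP300, an enhancer coactivator, had the highest mean CPM of the class over all 8 libraries, though KAT6A was higher with TP-472 and, without vehicle replicate 3, with vehicle. EP300 had 145, 73.2, 242 and 74.4 CPM with vehicle and 77.2, 70.01, 65.0 and 116 CPM with TP-472. Vehicle replicates 1 and 3 and TP-472 replicate 4 were high, and the groups overlapped. A log2 fold change of −0.70 ± 0.386 did not pass the edgeR test (adjusted p = 0.176), and was −0.26 without vehicle replicate 3 (adjusted p = 0.436). CREBBP, its paralog, had −1.20 ± 0.437 (adjusted p = 0.058) and −0.61 without vehicle replicate 3. The others, KAT2A, KAT2B, KAT5, KAT6A, KAT7 and KAT8, were not called, with log2 fold changes from −0.45 (KAT2A) to −0.16 (KAT5), and from −0.41 (KAT2B) to 0.01 (KAT5) without vehicle replicate 3.

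Within Polycomb, EZH1 and CBX7 fell (22.2%, against 14.9% of all genes tested), and the other 7 genes were not called. The class had a median log2 fold change of 0.16, and 0.11 without vehicle replicate 3. EZH1 and EZH2 are alternative catalytic subunits of Polycomb repressive complex 2, which methylates lysine 27 of histone H3 together with SUZ12 and EED, while CBX7 is a reader that brings Polycomb repressive complex 1 to that mark. Promoter sequence of RefSeq (GRCh38.p14) is shown for EZH1, CBX7 and KMT2C, which are the enzymes called with and without vehicle replicate 3 whose RefSeq start lies within 50 bases of the start of the GENCODE gene, and for EZH2 as the paralog of EZH1. Each is the 120 bases from 150 to 31 before the start, on the gene's own strand, with matches of GGGCGG (the GC box) or CCAAT on either strand in capitals, overlapping matches included. TATAAA, also searched, matched in none of them.
EZH1: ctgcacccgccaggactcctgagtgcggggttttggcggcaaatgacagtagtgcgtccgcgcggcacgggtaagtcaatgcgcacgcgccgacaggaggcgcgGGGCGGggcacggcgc
EZH2: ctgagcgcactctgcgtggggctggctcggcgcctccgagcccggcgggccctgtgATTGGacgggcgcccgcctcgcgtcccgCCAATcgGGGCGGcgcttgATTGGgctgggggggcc
CBX7: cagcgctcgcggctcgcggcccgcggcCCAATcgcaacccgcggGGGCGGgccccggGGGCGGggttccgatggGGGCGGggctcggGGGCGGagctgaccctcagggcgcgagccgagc
KMT2C: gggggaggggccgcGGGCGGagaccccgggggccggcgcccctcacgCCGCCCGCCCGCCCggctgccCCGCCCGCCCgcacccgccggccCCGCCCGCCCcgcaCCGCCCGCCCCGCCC

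The stretches are chr17:42745071-42745190 for EZH1, chr7:148884322-148884441 for EZH2, chr22:39152711-39152830 for CBX7 and chr7:152436034-152436153 for KMT2C, all on the minus strand. EZH1 held 1 GC box and no CCAAT, whereas EZH2 held 1 GC box and 3 CCAAT matches. CBX7 held 4 GC boxes and 1 CCAAT, and KMT2C held 11 GC boxes that partly overlap. A GC box was present in this window of 26 of the 50 enzyme genes matched by symbol (52.0%) and of 31.9% of all 35116 promoters of the table, and CCAAT in 18.0% and 20.9%. None of the 50 held TATAAA, against 3.88% of all promoters. The sets are unlike, since each enzyme gene counts once while the 35116 promoters were not limited to the genes tested or to 1 per gene. For some enzyme genes the RefSeq start also lies far from the GENCODE start (408800 bases for HDAC9). These letter matches are a description of the window and were not tested against the values.

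EZH1 (ENSG00000108799.13, chromosome 17, 42700275 to 42745049) had 24.2, 23.6, 25.8 and 25.7 CPM with vehicle and 15.1, 15.1, 14.8 and 15.6 CPM with TP-472. Its libraries were tight in both groups, vehicle replicate 3 included, and far apart between them. The fold change was 0.610 (log2 −0.71 ± 0.0969, edgeR adjusted p = 0.00101), and −0.70 without vehicle replicate 3 (adjusted p = 2.99e-05). EZH2 had 98.2, 105, 58.7 and 106 CPM with vehicle and 102, 103, 101 and 104 CPM with TP-472. The TP-472 values lay among the vehicle values, and vehicle replicate 3 was low. EZH2 had a log2 fold change of 0.16 ± 0.177 (adjusted p = 0.5 in edgeR) and −0.01 without vehicle replicate 3 (adjusted p = 0.872).

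CBX7 (ENSG00000100307.13, chromosome 22, 39120167 to 39152674) had 10.8, 8.88, 22.6 and 8.63 CPM with vehicle and 4.01, 3.83, 3.05 and 3.80 CPM with TP-472. All TP-472 libraries were lower, and vehicle replicate 3 was highest. The fold change was 0.289 (log2 −1.79 ± 0.319, edgeR adjusted p = 0.00339), and −1.36 without that library (adjusted p = 3.14e-05). SUZ12, with the highest mean CPM of the class, had 239, 213, 132 and 204 CPM with vehicle and 174, 180.0, 176 and 207 CPM with TP-472. The groups overlapped, with a log2 fold change of −0.10 ± 0.175 (edgeR adjusted p = 0.683), and of −0.25 without vehicle replicate 3 (adjusted p = 0.0261). RNF2 and BMI1 of Polycomb repressive complex 1, EED, CBX2 and CBX8 were not called, at −0.19 (CBX2) to 0.57 (BMI1), and at 0.11 (RNF2) to 0.37 (BMI1) without that library. EED and BMI1 were higher in every TP-472 library than in any vehicle library, with log2 fold changes of 0.43 and 0.57 and edgeR adjusted p of 0.114 and 0.0675. Both, without vehicle replicate 3, had lower adjusted p (0.00636 and 8.04e-04) and smaller changes (0.25 and 0.37).

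The 15 methyltransferases held 3 genes that fell, KMT2C, NSD2 and EHMT2 (20%, against 14.9% of all genes tested), and none that rose. The class median of −0.67 moved to −0.30 without vehicle replicate 3, and only KMT2C, 1 of 15 where 13.1% of all genes fell, kept its call. KMT2A to KMT2D and SETD1A and SETD1B methylate lysine 4 of histone H3, KMT2C and KMT2D mainly at enhancers. KMT2C (ENSG00000055609.18, chromosome 7, 152134922 to 152436005) had 248, 155, 219 and 153 CPM with vehicle and 115, 104, 100.5 and 167 CPM with TP-472. TP-472 replicate 4 was above vehicle replicates 2 and 4, so the groups overlapped. The fitted change was −0.67 ± 0.217 on the log2 scale (edgeR adjusted p = 0.0392) and −0.61 without vehicle replicate 3 (adjusted p = 0.0326). The call was lost without vehicle replicate 1 (−0.54, adjusted p = 0.102) and without TP-472 replicate 1, 2 or 3 (−0.65 to −0.58, adjusted p from 0.0998 to 0.116).

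KMT2D had 142, 59.2, 404 and 61.9 CPM with vehicle and 66.1, 51.5, 40.1 and 74.3 CPM with TP-472. Vehicle replicate 3 was far above every other library and the groups overlapped. Its log2 fold change of −1.52 ± 0.587 (edgeR adjusted p = 0.0695) was −0.60 without that library (adjusted p = 0.126). SETD1A had 22.6, 14.3, 78.1 and 13.6 CPM with vehicle and 17.8, 14.2, 13.0 and 18.0 CPM with TP-472. Its log2 fold change went from −1.03 ± 0.532 (edgeR adjusted p = 0.155) to −0.10 (0.676) once vehicle replicate 3 was left out. SETD1B had 30.2, 13.7, 108 and 15.01 CPM with vehicle and 13.4, 10.6, 8.60 and 15.4 CPM with TP-472. Vehicle replicate 3 was again far above the rest, and the log2 fold change of −1.795 ± 0.632 (edgeR adjusted p = 0.0522) was −0.71 without it (adjusted p = 0.055).

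NSD2, which methylates lysine 36 of histone H3, had the highest mean CPM of the class. NSD2 (ENSG00000109685.18, chromosome 4, 1871424 to 1982207) had 469, 353, 535 and 349.5 CPM with vehicle and 276, 259.5, 248 and 292 CPM with TP-472. The groups did not overlap, and vehicle replicates 1 and 3 were the high ones. The log2 fold change of −0.67 ± 0.157 (edgeR adjusted p = 0.0116) was −0.54 without vehicle replicate 3, where the adjusted p was 0.00236 and the fold change under the limit. EHMT2, also known as G9a and a writer of silent marks on lysine 9 of histone H3, lies on chromosome 6 (ENSG00000204371.11, 31879759 to 31897687). EHMT2 had 70.2, 66.8, 148 and 67.2 CPM with vehicle and 54.0, 51.2, 50.9 and 45.6 CPM with TP-472. Again all TP-472 libraries were lower and vehicle replicate 3 was far above the rest. EHMT2 fell by a log2 fold change of −0.81 ± 0.26 (edgeR adjusted p = 0.0386) and −0.44 without that library (adjusted p = 4.75e-04). Leaving out any 1 of the TP-472 libraries also ended the call, at adjusted p between 0.0794 and 0.0987.

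KMT2A, KMT2B, SETD2, DOT1L, NSD1, SUV39H1, SUV39H2, EHMT1 and SETDB1 were not called. Their log2 fold changes lay between −1.045 (KMT2B) and 0.53 (SUV39H2), and between −0.39 (KMT2A) and 0.39 (SUV39H2) without vehicle replicate 3, where KMT2B had −0.26. With all libraries SUV39H2, a writer of lysine 9 methylation at heterochromatin, was the only methyltransferase with a positive value (DOT1L also had one, 0.09, without vehicle replicate 3), higher in every TP-472 library, at 0.53 ± 0.156 (edgeR adjusted p = 0.0289) but under the fold limit. NSD1 and SETDB1 also passed the adjusted p alone, at −0.39 and −0.27, which were −0.39 and −0.27 without vehicle replicate 3 too.

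Of the 11 demethylases, KDM5B fell and none rose (9.09% fell, against 14.9% of all genes tested). The class median was −0.16, and −0.18 without vehicle replicate 3. KDM5A and KDM5B remove methyl groups from lysine 4 of histone H3. KDM5B (ENSG00000117139.18, chromosome 1, 202724495 to 202809470) had 201, 173, 153 and 172 CPM with vehicle and 111, 109.7, 112 and 124 CPM with TP-472. The groups were apart, and vehicle replicate 3 was the lowest vehicle library. KDM5B fell, at a log2 fold change of −0.62 ± 0.11 (edgeR adjusted p = 0.00333) and −0.68 without that library (adjusted p = 7.09e-05). Dropping vehicle replicate 1 gave −0.55 (adjusted p = 0.0092), under the fold limit. KDM1A, a partner of CoREST with the highest mean CPM of the class, had 265, 298, 207 and 287 CPM with vehicle and 274, 272, 283 and 256 CPM with TP-472. The groups overlapped (log2 fold change 0.04 ± 0.129, edgeR adjusted p = 0.835), and the value was −0.07 without vehicle replicate 3.

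KDM6A and KDM6B both remove the Polycomb mark on lysine 27 of histone H3. KDM6A had 73.7, 63.6, 53.5 and 66.5 CPM with vehicle and 61.7, 60.2, 57.4 and 71.9 CPM with TP-472, and KDM6B had 13.6, 4.40, 49.0 and 5.82 CPM with vehicle and 5.23, 4.48, 3.08 and 5.60 CPM with TP-472. The groups overlapped for both, and vehicle replicate 3 was lowest among vehicle libraries for KDM6A and highest for KDM6B. KDM6B had a log2 fold change of −1.98 ± 0.705 (edgeR adjusted p = 0.054), which was −0.79 without that library (adjusted p = 0.0847). For KDM6A the values were −0.03 and −0.12. KDM2A, KDM2B, KDM4A, KDM4B, KDM4C, KDM5A and KDM7A were not called, at −0.89 (KDM4B) to 0.07 (KDM4C), and at −0.35 (KDM4B) to 0.03 (KDM2A) without vehicle replicate 3.

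Since a ratio of 2 genes inside a library does not depend on the scaling between libraries, the balance within 18 pairs of related enzymes was compared as well. It was the log2 ratio of the first gene's counts over the second's in each library, not corrected for length, so that its difference between the groups can be read but not its level. The ratios of 9 pairs did not overlap between the groups (9 of 18, where it was 45.5% of all pairs of genes tested). Each of these 9 had p = 0.0286 in a two-sided exact permutation test, the smallest that 4 libraries against 4 can give, and an adjusted p of 0.0571 over the 18 pairs, so none passed 0.05. Without vehicle replicate 3, where 57.9% of all pairs of genes did not overlap, 11 of the 18 did not, these 9 together with HDAC7/HDAC9 and HDAC6/HDAC10.

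The HDAC4 to HDAC5 log2 ratio was −0.03, −0.61, 0.05 and −0.50 with vehicle and 0.98, 0.91, 0.96 and 1.21 with TP-472. All TP-472 libraries were above all vehicle libraries. The difference of the means was 1.29, and 1.4 without vehicle replicate 3. The EZH1 to EZH2 log2 ratio was −2.02, −2.15, −1.19 and −2.04 with vehicle and −2.76, −2.78, −2.76 and −2.74 with TP-472. Every TP-472 library was under every vehicle library, of which replicate 3 was the highest, with a difference of −0.91, or −0.69 without vehicle replicate 3. The other 7 pairs whose ratios did not overlap had smaller differences. They were −0.65 for HDAC1/HDAC2, −0.75 for SUV39H1/SUV39H2, 0.655 for SETD1A/SETD1B, 0.46 for KDM5A/KDM5B, 0.44 for KAT6A/KAT6B, 0.41 for EP300/CREBBP and 0.26 for NSD1/NSD2. Without vehicle replicate 3 these were −0.48, −0.55, 0.58, 0.41, 0.38, 0.33 and 0.15 in the same order. The KMT2C to KMT2D and KDM6A to KDM6B ratios overlapped, at differences of 0.42 and 1.32, which were −0.09 and 0.53 without vehicle replicate 3.

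**Figure D4:**
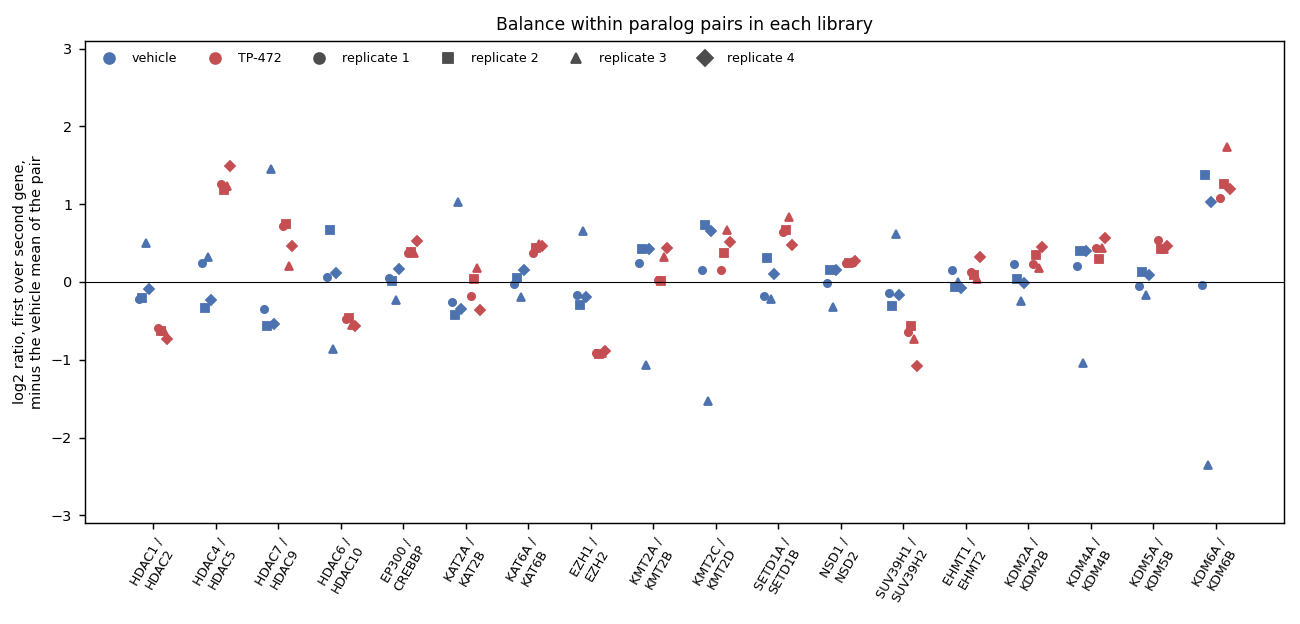
Log2 ratio of counts of the first over the second gene for 18 pairs of related enzymes in each library, shown minus the vehicle mean of the pair, with vehicle in blue, TP-472 in red and 1 symbol for each replicate number. HDAC4/HDAC5 lies higher and EZH1/EZH2 lower in all TP-472 libraries, while for KDM6A/KDM6B, KMT2C/KMT2D and KDM4A/KDM4B the vehicle triangle of replicate 3 lies far below the other points.

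Per kilobase of the longest annotated transcript, KDM1A had the highest mean vehicle level of the enzymes, at 86.45 CPM per kb, followed by HDAC1 at 59.5, NSD2 at 49.8, SUZ12 at 43.9 and HDAC3 at 41.3. With TP-472 the level of NSD2 was 31.4 CPM per kb, while KDM1A stood at 88.7 and HDAC1 at 59.4. The lowest vehicle level was that of KAT2B, at 0.778 CPM per kb, and HDAC11, CBX8, HDAC4 and KDM6B lay between 2.15 and 2.71. Vehicle replicate 3 bears on this order: without it SUZ12 (48.7 CPM per kb) was above NSD2 (45.6), and KDM6B stood at 1.18. These levels use 1 transcript per gene and are only approximate where shorter transcripts are used.

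Related genes were counted in a list of 107, which holds subunits of complexes of these enzymes and further enzymes of the same kinds, and all of which passed the filter. With all libraries 5 rose (4.67%, against 12.0% of all genes tested) and 17 fell (15.9%, against 14.9%), with a median log2 fold change of −0.14. In the fit without vehicle replicate 3, 6 rose and 14 fell, where 12.0% and 13.1% of all genes did, and the median was −0.11. In the deacetylase complexes, 7 of 22 genes fell (31.8%, against 14.9% of all genes) and none rose. The same 7 fell without vehicle replicate 3, and SIRT7 then rose (log2 fold change 0.69). SIRT3, MTA1, MTA3, CHD3, GATAD2B and TBL1X were among them. TBL1X, a subunit of a corepressor complex that holds HDAC3, went from a mean of 61.5 ± 24.98 CPM (SD, n = 4) with vehicle to 25.6 ± 5.79 CPM with TP-472 (log2 fold change −1.265, edgeR adjusted p = 0.0101). Leaving out vehicle replicate 3 gave −1.01.

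In the acetyltransferase complexes 2 of 24 genes rose (ING2 and ING3) and 3 fell (NCOA3, TRRAP and KANSL1), at 8.33% and 12.5% against 12.0% and 14.9% of all genes tested. ING3 and KANSL1 lost their calls without vehicle replicate 3, at log2 fold changes of 0.47 and −0.43. TRRAP, a scaffold of the TIP60 and SAGA complexes, had a log2 fold change of −0.94 (edgeR adjusted p = 0.0446; groups overlapped), and NCOA3, a nuclear receptor coactivator, of −0.71 (0.00863). These were −0.61 and −0.85 without vehicle replicate 3. Of 23 other Polycomb genes, PHF1, PHC1, SCMH1 and ASXL1 fell (17.4%), of which ASXL1 lost its call without vehicle replicate 3 (−0.43). SCMH1 and PHC1, both of Polycomb repressive complex 1, had −0.88 each (edgeR adjusted p = 0.00276 and 0.00467) and −0.73 and −0.74 without vehicle replicate 3. Among 25 other methyltransferases and COMPASS subunits PRMT6 rose (4%), and KMT5C (−1.12, adjusted p = 0.0163) and SETD5 (−0.68, 0.0413) fell (8%). They had −0.73 and −0.56 without vehicle replicate 3, where SETD5 lost its call, and CXXC1 rose (0.61).

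Of 13 other demethylases and related oxygenases, JMJD6 and RIOX2 rose (15.4%, against 12.0% of all genes tested) and PHF2 fell (7.69%, against 14.9%). JMJD6 went from 31.6 ± 3.755 CPM (SD, n = 4) with vehicle to 61.5 ± 5.41 CPM with TP-472, with all TP-472 libraries above all vehicle libraries. Its log2 fold change was 0.96 (edgeR adjusted p = 7.07e-04), and 1.035 without vehicle replicate 3. PHF2, a demethylase of lysine 9 of histone H3, went from 58.4 ± 22.3 to 26.6 ± 1.51 CPM (−1.13, edgeR adjusted p = 0.00612), and had −0.84 without that library.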

How the data were processed

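RNA of SK-UT-1 cells treated with vehicle or TP-472 was sequenced in 4 replicates each. Per the study's methods and processing notes, the authors mapped the reads to GRCh38 with STAR, estimated transcript abundance with Salmon 1.4.0 and summed it by gene with tximport and GENCODE release 34. The deposited values are therefore estimated counts, neither normalized nor filtered, which Salmon divides between genes that share sequence. They were rounded here.

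Only genes above 1 CPM in 4 or more libraries entered the fit. After TMM scaling, the groups were compared in edgeR 4.0.16 (R 4.3.3) by its quasi-likelihood test, with group as the only term. Genes with a Benjamini-Hochberg adjusted p under 0.05 over all 14073 genes and a fold change over 1.5 were called. Standard errors are the log2 fold change divided by the square root of F. Levels are TMM-scaled CPM. Pair ratios used a prior count of 0.5 and a two-sided exact permutation test over 70 assignments. GC content, length and positions came from GENCODE release 29 by gene identifier (GC for 99.3% of genes tested), and promoters from RefSeq.

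Library totals were at least 32574716 counts. The share of counting error in the spread was not measured, and it is larger for genes of few counts. The members and gene lists were chosen with earlier results of these data known. Library values are given for called members, for the 5 pairs with the largest difference of log2 fold changes and for the member of each class with the highest mean CPM, and of the related genes the 2 called with the largest change per class are described. Single values of a few related and marker genes were left out of the text, and the counts still hold them. Alternatives were RLE, upper-quartile and total-count scaling, DESeq2 1.42.0, limma-voom 3.58.1 with quality weights, no filter or a filter at 5 CPM, a replicate block, removal of each library's GC trend, 2 other thresholds, and the omission of each library. As a check of the code, edgeR was run on simulated counts of 13929 genes, and called 195 of 200 changed genes and 1 unchanged gene. The simulation gave all genes the same dispersion and held no library like vehicle replicate 3 and no change near the fold limit. It therefore does not measure the error of the calls in these data.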

Additional observations from a re-analysis of the deposited data

Results flagged for a closer look

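Of 114 groups of 4 libraries (57 enzymes in each of 2 groups), 21 held a library whose gap to its nearest neighbour was above Dixon's 95% critical value; chance flags about 1 in 20 groups. In 18 of them the library was vehicle replicate 3. It was the highest of its group for HDAC5 (40.67 CPM), HDAC6 (81.61 CPM), HDAC7 (89.48 CPM), HDAC10 (31.84 CPM), SIRT6 (30.51 CPM), KAT2A (152.7 CPM), CBX2 (49.19 CPM), CBX7 (22.64 CPM), SETD1A (78.14 CPM), EHMT1 (171.3 CPM), EHMT2 (148.5 CPM), KDM2B (87.83 CPM) and KDM4B (118.1 CPM). It was the lowest for HDAC9 (130.7 CPM), KAT7 (68.81 CPM), EZH2 (58.68 CPM), EED (16.41 CPM) and SUV39H2 (21.71 CPM). In TP-472 replicate 4, EED was the highest of its group at 39.1 CPM and CBX2 the lowest at 24.94 CPM, and in vehicle replicate 1 SETD2 was the highest at 206.6 CPM.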

How the results depend on the processing

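HDAC5, HDAC6, HDAC9, EZH1 and CBX7 fell in all fits tried with another scaling, test, filter, replicate block, GC correction or library left out, and a test against a 1.5-fold change called HDAC5, HDAC6, HDAC9 and CBX7. That test called 1123 of all genes, 0 enzymes that rose, 4 that fell and 2 related genes. Among those fits KAT6B lost its call only with limma-voom. The count of enzymes that rose was 0 with upper-quartile scaling, total-count scaling, limma-voom with quality weights, no filter or the GC trend removed. By adjusted p alone 2 enzymes rose and 15 fell. That threshold called 35 of the 107 related genes, where 36.3% of all genes tested were called in either direction. The count that fell was 17 with DESeq2, 6 with limma-voom and 18 with no filter, where 16.8%, 24.8% and 15.3% of all genes tested were called in either direction (26.9% as reported; DESeq2 and no filter tested 33192 genes). HDAC7, KMT2C, NSD2 and EHMT2 also lost their calls with limma-voom. With total-count scaling 9 enzymes fell, where 26.1% of all genes were called, and HDAC7 and KMT2C lost their calls (edgeR adjusted p of 0.0521 and 0.0583). The filter at 5 CPM ended the call of HDAC7 (edgeR adjusted p = 0.0518). Removing the GC trend ended the calls of HDAC2, HDAC7 and EHMT2 and called HDAC4, HDAC8 and CREBBP. With 1 library left out, 2486 (without TP-472 replicate 3) to 4110 (without vehicle replicate 2) of all genes were called, 0 to 1 enzymes rose, 8 to 19 fell, and 13 (without TP-472 replicate 1) to 29 (without vehicle replicate 2) related genes were called. The 8 that fell came without vehicle replicate 1 or 3 or TP-472 replicate 1, 2 or 3, and more than 11 only without vehicle replicate 2 or 4, where HDAC4, CREBBP, KMT2D, SETD1B, EHMT1, KDM4B and KDM6B were also called. Pairs with ratios that did not overlap numbered 9 to 11. The cause of these differences was not tested.

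Same-numbered libraries did not deviate together (r of −0.098, 0.111, −0.244 and −0.225), which gave no sign that the numbers pair the samples. These values cannot exclude a pairing, since the vehicle deviations hold the GC trend of vehicle replicate 3, and no label gives a batch. The GC correction was not run together with the block. With the replicate block 0 enzymes rose and 8 fell, all among the 12, and 21.7% of all genes tested were called.

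Enzymes whose log2 fold change had another sign under an alternative were all among those not called. With limma-voom it was 0.2698 for SIRT6, −0.03533 for EZH2, 0.09865 for CBX2, 0.01724 for KMT2B, 0.09482 for SETD1A, 0.2885 for DOT1L, −0.07633 for KDM1A, 0.1217 for KDM2A, −0.01892 for KDM4C and −0.08632 for KDM7A. With the replicate block it was 0.00412 for HDAC1 and 0.003167 for SIRT6. With the GC trend removed it was 0.2356 for HDAC11, 0.4518 for SIRT6, 0.08126 for KAT5, 0.1963 for CBX2, 0.01713 for SUV39H1, −0.02118 for KDM4C and −0.0778 for KDM7A. With 1 library left out it ran from −0.06501 to 0.0521 for HDAC1, −0.2228 to 0.2819 for SIRT6, −0.2599 to 0.005989 for KAT5, −0.01124 to 0.224 for EZH2, −0.2523 to 0.003752 for SUZ12, −0.3157 to 0.1178 for CBX2, −0.1859 to 0.06004 for SETD2, −1.009 to 0.09339 for DOT1L, −0.06923 to 0.09286 for KDM1A, −0.2256 to 0.02651 for KDM2A, −0.02556 to 0.1131 for KDM4C, −0.1184 to 0.03004 for KDM6A and −0.1165 to 0.1464 for KDM7A.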
